A study of Mus musculus with 8 samples.

Results

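From a list of 50 genes of nucleolar ribosome biogenesis chosen by symbol, 49 had values among the 21553 mouse genes measured. The 49 comprise 3 core genes of box C/D small nucleolar ribonucleoproteins (snoRNPs), 4 core genes of box H/ACA snoRNPs, 21 genes of small subunit assembly, 12 of large subunit assembly, 5 of RNA polymerase I transcription and 4 general nucleolar genes. Noc2l was also listed and was not analysed here. All 49 passed the filter on low counts in every comparison. The lowest member value was 23 reads in a library, and the highest was 21307.

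Polyadenylated RNA of whole mouse embryos from B6CBA F1 crosses was sequenced in 8 conditions with 1 library each. Embryos were injected at the 1-cell stage with mRNA of Snrpb, with mRNA of Snrpd2, with both, or with mCherry mRNA as the control, and RNA was taken 24 h later at the 2-cell stage or 5 h later at the 1-cell stage. Snrpb and Snrpd2 encode proteins of the Sm ring of spliceosomal small nuclear ribonucleoproteins, and mCherry is a fluorescent protein. Each library pooled 40 embryos from 3 independent experiments, so variation between embryos or experiments is not visible, and every library came from an injected embryo pool. The series asks how raised levels of these Sm proteins change the embryo around the activation of its own genome. Values below within a stage are in the order Snrpb, Snrpd2, both mRNAs and mCherry.

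Ribosomes are assembled in the nucleolus. RNA polymerase I transcribes the ribosomal RNA precursor, snoRNPs direct its chemical modification, and assembly factors fold, cut and package it into small and large subunits. Box C/D snoRNPs guide methylation of ribose and box H/ACA snoRNPs guide the change of uridine to pseudouridine. A newly fertilised mouse egg carries maternal ribosomes and compact nucleolus precursor bodies, and working nucleoli form as the embryo begins to transcribe its own genome.

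The libraries held 39492734 to 44648717 counted reads at the 2-cell stage and 49461122 to 59979046 at the 1-cell stage. Injected transcripts were found where the labels put them. Snrpb was at 1704, 876 and 17.4 cRPKM in 2-cell libraries given Snrpb, both mRNAs and mCherry, and at 43850, 11913 and 7.96 cRPKM in the matching 1-cell libraries. Snrpd2 was at 5240, 4726 and 10.6 cRPKM in 2-cell libraries given Snrpd2, both mRNAs and mCherry, and at 17926, 9142 and 1.89 cRPKM in the matching 1-cell libraries. A cRPKM is the authors' read count per gene length and library depth (a form of RPKM). Markers of the oocyte and early embryo summed to 5740 to 6736 cRPKM at the 2-cell stage and to 8075 to 8817 cRPKM at the 1-cell stage, with no gene of the list at 0 reads. Of these 14 genes, 12 were lower and 1 higher at the 2-cell stage (edgeR), against 32% and 38.1% of all genes. Their median log2 fold change was -2.26. All 10 markers of the 2-cell stage were higher in the 2-cell libraries. The 10 markers of blood, fibroblasts and oviduct summed to 35.65 to 55.96 cRPKM at the 2-cell stage and to 5.05 to 17.1 cRPKM at the 1-cell stage. Of the 6 that could be tested, 5 were higher (edgeR), and Hbb-bs and Hbb-bt were at 0 reads throughout. Most of the 2-cell sum was Krt8 (18.37 to 27.25 cRPKM) and Epcam (9.39 to 13.87 cRPKM). Lyz2 had 3.76 to 14.66 and Pdgfra 1.93 to 2.95 cRPKM there. Ptprc, Col1a1, Col1a2 and Ovgp1 were at 0.28 cRPKM or less in the 2-cell libraries. The 20 cumulus and granulosa markers summed to 20.2 to 28.5 cRPKM at the 2-cell stage and to 22.4 to 48.0 cRPKM at the 1-cell stage, with 5 higher and 4 lower of 18 tested and Ereg at 0 reads throughout. The part of these lists in the stage results was not tested.

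The 49 genes together fell to 0.204 to 0.244% of reads at the 2-cell stage, against 0.366 to 0.434% at the 1-cell stage. In 2-cell embryos 28 were lower and 14 higher, and 7 did not pass the test. The test was edgeR's quasi-likelihood test with the injection as a further term and a Benjamini-Hochberg adjusted p under 0.05. Of all 16264 genes tested, 32% were lower and 38.1% higher, and 70.1% changed in either direction. The median log2 fold change (2-cell over 1-cell) was -0.64 over the 49 genes and 0.15 over all genes. In cRPKM the stages did not overlap for 41 of the 49 genes, against 67.7% of all genes. Of these, 25 were lower and 16 higher at the 2-cell stage, against 24.8% and 42.8% of all genes. These are shares of each library, so the amount of RNA per embryo or per cell was not measured. In pooled whole embryos a change in the cells sampled and a change in RNA per cell cannot be told apart. Only polyadenylated RNA was sequenced, so a change in polyadenylation and a change in the amount of a transcript cannot be told apart either. Scaling by library totals moved the median of all genes to 0.41 and that of the 49 genes to -0.38, and limma on cRPKM gave -0.37 and -0.35 for the 49 genes. The folds below rest on TMM scaling. The plot of levels in all libraries shows every gene.

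**Figure D1:**
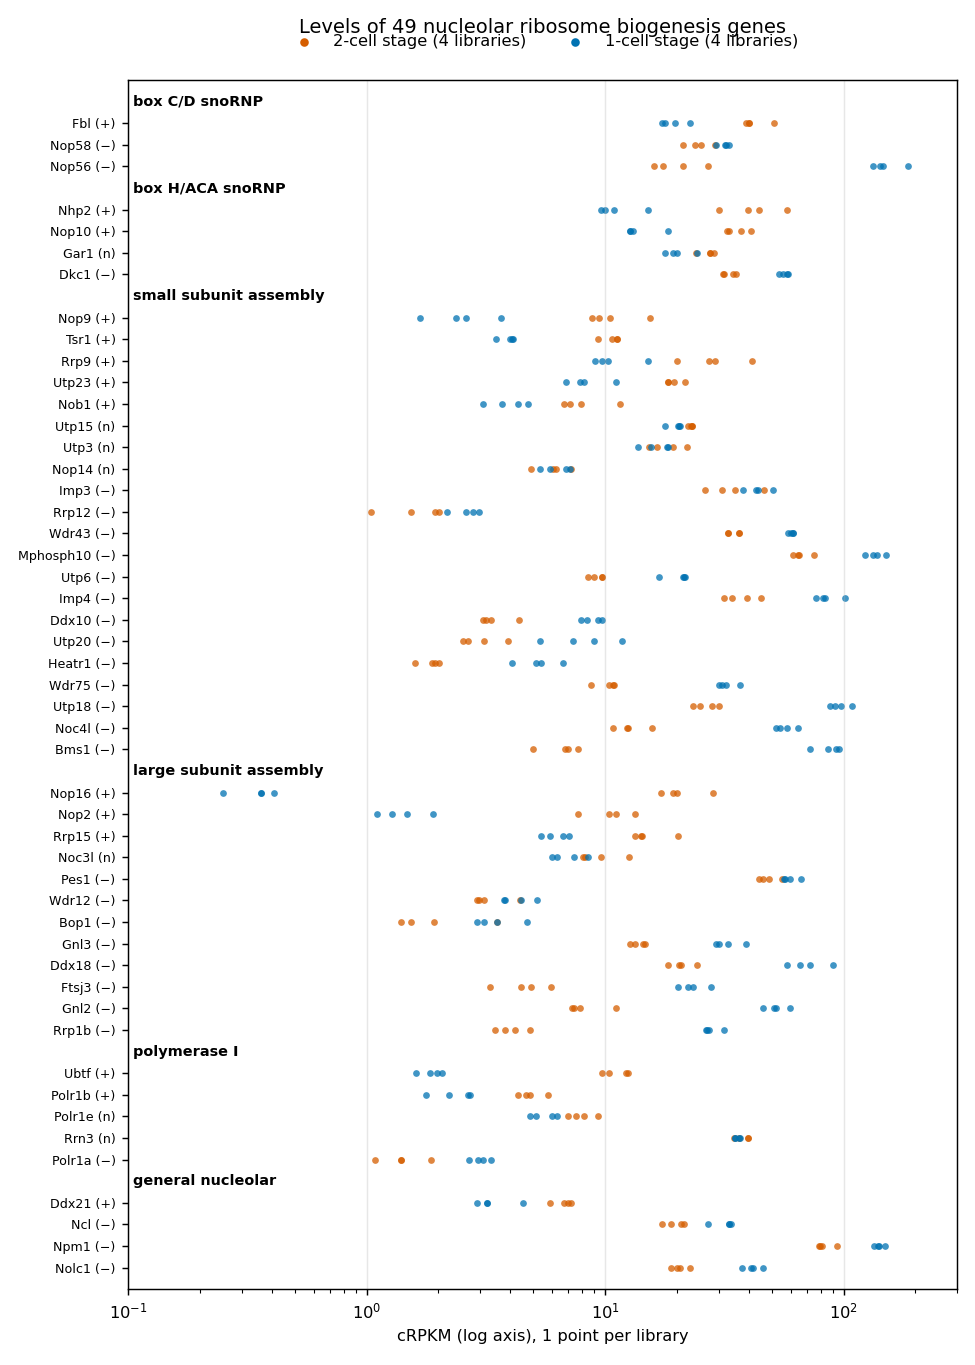
Levels of the 49 genes in cRPKM on a log axis, 1 point per library, with 2-cell libraries in orange and 1-cell libraries in blue, ordered within each class by the stage log2 fold change. Signs after a symbol give the edgeR call at the 2-cell stage (+ higher, − lower, n not called), and the orange points of 28 genes marked lower lie mainly left of the blue.

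The 3 listed box C/D core genes reversed their order of abundance between the stages. Snu13, a further core gene, was not among the members and is counted below with the snoRNP assembly genes. Nop56, which with Nop58 forms the scaffold of the particle, had 16.1, 27.1, 21.3 and 17.4 cRPKM in 2-cell embryos, against 146, 132, 141 and 187 cRPKM in 1-cell embryos. All 2-cell values lay far below all 1-cell values, and the fold was 8.97-fold lower (log2 -3.17 ± 0.18 SE, edgeR adjusted p = 1.92e-07). Nop58 had 23.8, 28.9, 25.3 and 21.2 cRPKM in 2-cell embryos, against 29.25, 31.95, 32.2 and 33.1 cRPKM in 1-cell embryos. The groups were close but did not overlap, and Nop58 fell by 0.62 on the log2 scale (edgeR adjusted p = 8.01e-04). Fbl, the methyltransferase of the particle, had 40.0, 51.0, 39.9 and 39.0 cRPKM in 2-cell embryos, against 17.4, 17.8, 19.5 and 22.6 cRPKM in 1-cell embryos. It was higher in every 2-cell library, with a log2 fold change of 0.88 ± 0.13 SE (edgeR adjusted p = 2.12e-04). Per length, the order was Fbl, Nop58, Nop56 in all 4 2-cell libraries and Nop56, Nop58, Fbl in all 4 1-cell libraries. The ratio of the most to the least abundant of the 3 was 1.88 to 2.49 at the 2-cell stage and 7.23 to 8.41 at the 1-cell stage.

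The box H/ACA core genes did not move together. Dkc1, the pseudouridine synthase, had 31.1, 34.45, 35.45 and 31.6 cRPKM in 2-cell embryos, against 55.9, 53.5, 57.8 and 58.4 cRPKM in 1-cell embryos. It was lower in every 2-cell library (log2 -1.03 ± 0.11 SE, edgeR adjusted p = 1.39e-05). The small core proteins Nhp2 and Nop10 were higher. Nhp2 had 29.9, 58.0, 39.6 and 44.4 cRPKM in 2-cell embryos, against 9.97, 9.65, 10.85 and 15.1 cRPKM in 1-cell embryos (log2 1.64 ± 0.18 SE, edgeR adjusted p = 1.64e-05). Nop10 had 32.4, 40.8, 33.0 and 37.0 cRPKM in 2-cell embryos, against 12.7, 13.1, 12.7 and 18.35 cRPKM in 1-cell embryos (log2 1.08 ± 0.13 SE, edgeR adjusted p = 4.25e-05). For neither gene did the stages overlap. Gar1, the fourth core protein, had 27.5, 28.6, 23.9 and 27.5 cRPKM in 2-cell embryos, against 19.2, 24.3, 20.1 and 17.8 cRPKM in 1-cell embryos. Its groups overlapped by 1 library, and its log2 fold change of 0.15 was not called (edgeR adjusted p = 0.332). The 4 genes were within 1.18 to 2.03 times of each other in 2-cell libraries, against 3.87 to 5.61 times in 1-cell libraries.

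**Figure D2:**
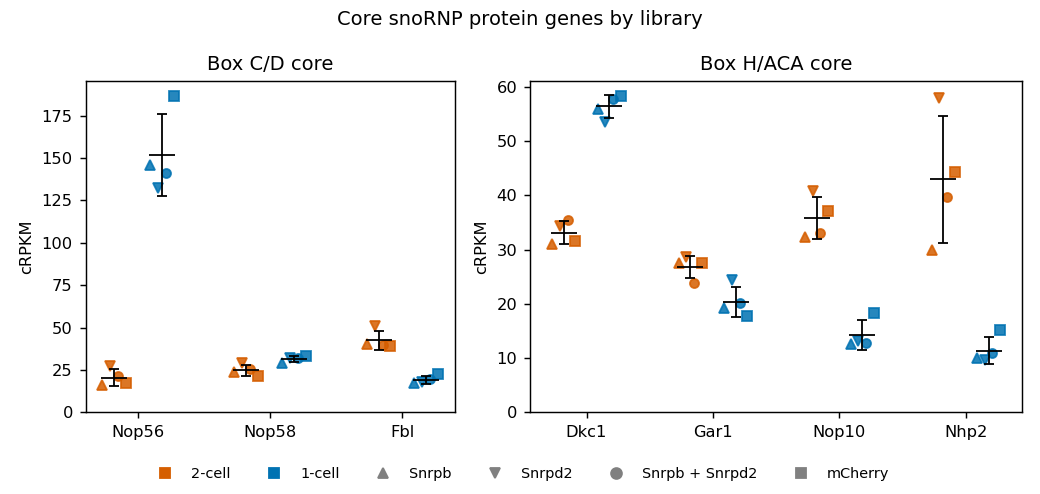
Levels of the listed core box C/D genes (left, without Snu13) and box H/ACA genes (right) in cRPKM, with 2-cell libraries (orange) left of 1-cell libraries (blue). There is 1 symbol per injected mRNA, and black bars give the mean ± SD over the 4 libraries of a stage. Nop56 averaged 20.5 cRPKM at the 2-cell stage and 152 cRPKM at the 1-cell stage, while Fbl, Nop10 and Nhp2 lay higher at the 2-cell stage.

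Small subunit assembly factors were mostly lower in 2-cell embryos: 13 of 21 fell and 5 rose, against 32% and 38.1% of all genes. The other 3 did not pass the test, and the median log2 fold change was -1.07. Bms1, a GTPase of the small subunit processome, had 7.0, 6.80, 7.73 and 5.0 cRPKM in 2-cell embryos, against 71.99, 92.9, 95.2 and 86.1 cRPKM in 1-cell embryos. It was 15.7-fold lower (log2 -3.97 ± 0.14 SE, edgeR adjusted p = 1.89e-08), the largest fall of the 49 genes. Noc4l, whose yeast counterpart binds that of Nop14, had 12.5, 15.7, 12.4 and 10.8 cRPKM in 2-cell embryos, against 57.9, 52.1, 54.25 and 64.4 cRPKM in 1-cell embryos (log2 -2.42). Utp18, of the UtpB subcomplex, had 23.4, 29.9, 28.2 and 25.0 cRPKM in 2-cell embryos, against 97.2, 88.0, 92.0 and 108 cRPKM in 1-cell embryos (log2 -2.12). Wdr75, of the UtpA subcomplex, had 8.68, 10.9, 10.3 and 10.8 cRPKM in 2-cell embryos, against 30.0, 30.95, 32.2 and 36.7 cRPKM in 1-cell embryos (log2 -1.94). None of these 4 genes overlapped between the stages.

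Among the small subunit genes that rose, Nop9, which in yeast binds the 18S precursor, had 8.84, 15.35, 10.4 and 9.40 cRPKM in 2-cell embryos, against 1.67, 2.37, 2.60 and 3.67 cRPKM in 1-cell embryos (log2 1.86 ± 0.20 SE, edgeR adjusted p = 1.86e-05). Tsr1, which acts late on the 40S particle, had 9.36, 10.7, 11.2 and 11.2 cRPKM in 2-cell embryos, against 3.48, 3.98, 4.06 and 4.12 cRPKM in 1-cell embryos (log2 1.18). Both were higher in every 2-cell library. Rrp9, which binds U3 snoRNA, had 20.1, 41.1, 27.2 and 28.8 cRPKM in 2-cell embryos, against 10.3, 9.05, 9.68 and 15.1 cRPKM in 1-cell embryos (log2 1.13). Utp23, a processome component, had 19.4, 21.7, 18.3 and 18.4 cRPKM in 2-cell embryos, against 7.87, 6.87, 8.12 and 11.15 cRPKM in 1-cell embryos (log2 0.95). Here too the groups did not overlap. Nob1, the nuclease that makes the end of 18S ribosomal RNA, was the other one that rose (log2 0.80).

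Partners of one complex changed by different amounts. Mphosph10, Imp4 and Imp3 bind one another in the processome, and they fell by 1.29, 1.46 and 0.62 on the log2 scale, although cRPKM of Imp3 overlapped between the stages. Of the UtpA proteins, Heatr1 fell by 1.76, Wdr75 by 1.94 and Wdr43 by 1.07, while Utp15 had a log2 fold change of -0.05 and was not called (edgeR adjusted p = 0.704). Utp15 had 23.1, 22.3, 23.2 and 22.9 cRPKM in 2-cell embryos, against 17.8, 20.45, 20.65 and 20.3 cRPKM in 1-cell embryos. It was therefore slightly higher in cRPKM in every 2-cell library, and its fold turned to 0.21 with library totals. Nop14 and Utp3 were not called either.

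Large subunit factors held both the strongest rise and several strong falls. Of 12, 8 were lower and 3 higher, against 32% and 38.1% of all genes, and 1 was not called (median log2 fold change -0.87). Rrp1b, a nucleolar protein of the large subunit precursor, had 4.18, 4.82, 3.44 and 3.79 cRPKM in 2-cell embryos, against 26.4, 26.6, 27.3 and 31.5 cRPKM in 1-cell embryos (log2 -3.05 ± 0.13 SE, edgeR adjusted p = 3.39e-08). Gnl2, a GTPase, had 7.41, 7.83, 11.1 and 7.26 cRPKM in 2-cell embryos, against 46.0, 51.0, 52.0 and 59.3 cRPKM in 1-cell embryos (log2 -2.91). The stages lay far apart for both. Ftsj3, a ribose methyltransferase, had 3.28, 5.95, 4.43 and 4.91 cRPKM in 2-cell embryos, against 20.2, 22.2, 23.35 and 27.7 cRPKM in 1-cell embryos (log2 -2.61). Ddx18, a helicase, had 20.3, 24.2, 20.75 and 18.4 cRPKM in 2-cell embryos, against 57.9, 65.6, 71.95 and 89.9 cRPKM in 1-cell embryos (log2 -2.02). The mCherry library was the highest of the 1-cell libraries for all 4 of these genes. In cRPKM the same held for 35 of the 49 genes and for 35.4% of all genes.

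Nop16, a factor of the large subunit precursor, had the lowest 1-cell level of the 49 genes and the highest fold change. It had 17.2, 28.2, 19.3 and 19.96 cRPKM in 2-cell embryos, against 0.41, 0.25, 0.36 and 0.36 cRPKM in 1-cell embryos, where 23 to 41 reads were counted in a library. The fold was 49.9 (log2 5.64 ± 0.23 SE, edgeR adjusted p = 3.17e-08). Nop2, a cytosine methyltransferase, had 7.69, 13.3, 10.35 and 11.1 cRPKM in 2-cell embryos, against 1.28, 1.1, 1.48 and 1.89 cRPKM in 1-cell embryos (log2 2.62 ± 0.19 SE). Rrp15, a factor of early large subunit precursors, had 14.2, 20.2, 13.4 and 14.1 cRPKM in 2-cell embryos, against 6.66, 5.88, 5.37 and 7.08 cRPKM in 1-cell embryos (log2 1.04 ± 0.16 SE). All 3 were higher in all 4 injections. The PeBoW complex members Pes1, Wdr12 and Bop1, which act together on the large subunit, were unequal at both stages. Pes1 was 17.7 to 35.1 times as abundant per length as the least abundant member in 2-cell libraries, against 14.02 to 19.5 times in 1-cell libraries. All 3 fell, by 0.56, 0.64 and 1.1 on the log2 scale, but cRPKM of Wdr12 and Bop1 overlapped between the stages, and the call of Wdr12 was lost with library totals (log2 -0.38).

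Of the 5 polymerase I genes 2 rose and 1 fell, against 38.1% and 32% of all genes, and 2 were not called. Ubtf, the factor that binds ribosomal DNA promoters, had 9.73, 12.2, 10.4 and 12.5 cRPKM in 2-cell embryos, against 1.85, 2.06, 1.97 and 1.61 cRPKM in 1-cell embryos. All 2-cell libraries were higher (log2 2.32 ± 0.16 SE, edgeR adjusted p = 5.43e-07). The largest subunits moved in opposite directions. Polr1b had 5.78, 4.86, 4.67 and 4.33 cRPKM in 2-cell embryos, against 2.21, 1.77, 2.66 and 2.72 cRPKM in 1-cell embryos (log2 0.82 ± 0.16 SE, edgeR adjusted p = 1.21e-03). Polr1a had 1.39, 1.39, 1.86 and 1.08 cRPKM in 2-cell embryos, against 2.68, 3.06, 2.94 and 3.31 cRPKM in 1-cell embryos (log2 -1.35 ± 0.17 SE, edgeR adjusted p = 6.19e-05). Neither overlapped between the stages. Polr1e, another subunit, had 6.97, 9.32, 8.13 and 7.56 cRPKM in 2-cell embryos, against 4.83, 5.14, 5.99 and 6.31 cRPKM in 1-cell embryos, and its log2 fold change of 0.26 was not called (edgeR adjusted p = 0.107). Rrn3, which recruits the polymerase, had 39.6, 34.6, 36.5 and 39.7 cRPKM in 2-cell embryos, against 35.15, 35.0, 36.8 and 36.3 cRPKM in 1-cell embryos. Its groups overlapped, its log2 fold change of -0.19 was not called (edgeR adjusted p = 0.136), and it turned to 0.07 with library totals.

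The general nucleolar genes Npm1, Ncl and Nolc1 fell and Ddx21 rose. Npm1, a nucleolar chaperone whose processed genomic copies may share its reads, had 78.7, 93.5, 81.4 and 79.6 cRPKM in 2-cell embryos, against 134, 149.7, 139 and 141 cRPKM in 1-cell embryos (log2 -1.02). Ncl, nucleolin, had 18.8, 21.4, 20.8 and 17.3 cRPKM in 2-cell embryos, against 26.9, 33.1, 33.6 and 32.9 cRPKM in 1-cell embryos (log2 -0.95). Both were lower in every 2-cell library. Nolc1, which binds snoRNPs, had 18.9, 22.7, 20.01 and 20.6 cRPKM in 2-cell embryos, against 37.5, 46.0, 41.5 and 40.7 cRPKM in 1-cell embryos (log2 -1.27). Ddx21, a helicase, had 6.72, 7.01, 7.17 and 5.86 cRPKM in 2-cell embryos, against 2.91, 3.19, 3.19 and 4.52 cRPKM in 1-cell embryos (log2 0.71 ± 0.16 SE, edgeR adjusted p = 2.45e-03). None of the 4 overlapped between the stages.

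Members of high and low 1-cell level differed in their counts of rises and falls. All 12 genes at 50 cRPKM or more at the 1-cell stage fell, as did 65.9% of all genes at that level, and 0 rose, against 17% of all genes. Of 11 genes between 20 and 50 cRPKM, 9 fell and 0 rose, against 59.8% and 18.2% of all genes. Of 14 genes between 5 and 20 cRPKM, 6 rose and 3 fell, against 23.1% and 50.3% of all genes. Of 12 genes under 5 cRPKM, 8 rose and 4 fell, against 50.5% and 14.7% of all genes. The 1-cell level enters both axes of this description, and the level limits were chosen after the data had been seen.

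**Figure D3:**
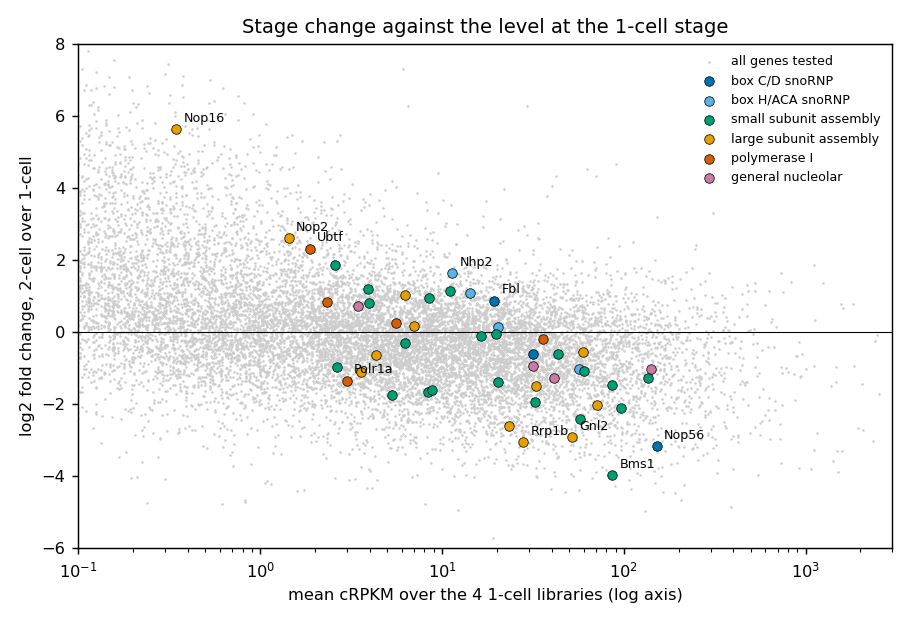
Log2 fold change of 2-cell over 1-cell embryos against the mean cRPKM of the 4 1-cell libraries (log axis), with all genes tested in grey and the 49 genes coloured by class. The 12 genes at 50 cRPKM or more all lie below 0, and Nop16, with a log2 fold change of 5.64, lies at the top left of the members.

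The E-box CACGTG, bound by MYC-family and related factors, was searched in the 250 bases before the start of each gene, and it reads the same on both strands. It was in 4 of the 42 members with a promoter in the RefSeq table (9.52%), against 9.43% of the tested genes and 6.86% of all genes in the table. One of the 4 rose (Nop2), 2 fell (Utp18 and Imp4) and 1 was not called (Rrn3). The 60 bases around each are shown 5′ to 3′ on the strand of the gene, from RefSeq GRCm38.p6, with the E-box in capitals, at chr6:125131796-125131855 (+) for Nop2, chr11:93885767-93885826 (-) for Utp18, chr1:34439681-34439740 (+) for Imp4 and chr16:13780457-13780516 (+) for Rrn3. Rrn3 has 2 E-boxes in its 250 bases, of which the one farther from the gene start is shown.
Nop2: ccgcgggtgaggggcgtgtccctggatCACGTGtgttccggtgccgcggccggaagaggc
Utp18: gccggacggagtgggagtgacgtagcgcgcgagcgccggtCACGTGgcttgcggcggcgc
Imp4: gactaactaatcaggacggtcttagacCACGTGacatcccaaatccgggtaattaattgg
Rrn3: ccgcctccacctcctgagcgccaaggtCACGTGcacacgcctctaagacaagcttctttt
The ETS-type word CCGGAAGT, searched on both strands, was in 5 of the 42 (11.9%), namely Gar1, Nhp2, Bms1, Heatr1 and Utp3, against 5.7% of the tested genes. The palindromic CGCG element was in 0 of the 42, against 0.847% of the tested genes.

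Other genes of the pathway also moved in both directions. Of 123, 64 fell, 31 rose and 28 were not called, with a median log2 fold change of -0.50. Among all genes tested, 32% fell and 38.1% rose, with a median of 0.15, and the class counts below stand beside these shares. Among exosome and trimming factors 10 of 15 fell, with Exosc10, a nuclease of the nuclear exosome, at 6.86 ± 1.16 cRPKM in 2-cell and 39.2 ± 3.63 cRPKM in 1-cell embryos (SD, n = 4 each). C1d, a cofactor of that nuclease, rose to 30.9 ± 1.1 cRPKM in 2-cell embryos, against 0.845 ± 0.173 cRPKM in 1-cell embryos. Among small subunit factors 17 of 38 fell, led by Nat10, an RNA acetyltransferase (log2 -3.70), and Pwp2 (log2 -3.51), and 6 rose, led by Nol11 (log2 4.21) and Utp14b (log2 2.70), a retrogene copy of Utp14a with which it may share reads. Of 45 large subunit factors 27 fell, led by Ddx55 (log2 -3.80) and Ppan (log2 -3.17), and 10 rose, led by Mak16 (log2 5.45) and Rrs1 (log2 3.90). Of 11 polymerase I genes 5 fell and 4 rose. Here the promoter selectivity subunits split, with Taf1b (log2 -3.65) and Taf1a (log2 -2.83) lower and Taf1d (log2 2.75) higher, and the terminator protein gene Ttf1 rose as well (log2 2.60). In the class listed as snoRNP assembly 8 of 14 rose and 5 fell, with a median log2 fold change of 1.41. This class also holds Snu13, Nop53, Fbll1 and Tgs1, which are not assembly factors of snoRNPs in the strict sense. Tgs1 encodes an enzyme that further methylates the cap of some snoRNAs. It rose to 24.5 ± 4.94 cRPKM in 2-cell embryos, against 0.388 ± 0.0624 cRPKM in 1-cell embryos (SD, n = 4 each). Shq1, a chaperone of the Dkc1 protein, fell (log2 -2.91), as did Pih1d1 (log2 -1.95). Fbll1, related to Fbl, was called higher on 84 reads in 2-cell and 2 reads in 1-cell libraries. Xrn2 fell (log2 -2.36) and Isg20l2, a trimming nuclease, rose (log2 5.74).

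Of the 49 genes, 13 share exon bases, on the other strand, with another gene in the tables. The kit marks strand, but whether strand was used in counting is not stated, so reads of such pairs may not be fully separated. The partner was more abundant than the member in 2 of these pairs at the 2-cell stage and in 0 at the 1-cell stage. Hsf2bp, partner of Rrp1b, averaged 64.2 cRPKM in 2-cell and 25.1 cRPKM in 1-cell embryos, while Rrp1b averaged 4.06 and 27.9 cRPKM in the same groups. Lgals8, partner of Heatr1, averaged 4.57 cRPKM in 2-cell and 4.14 cRPKM in 1-cell embryos.

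Sm mRNA injection passed the test for none of the 49 genes at either stage. Of 16867 genes, 0% were called at the 1-cell stage, at the 2-cell stage or for the difference between stages (edgeR, adjusted p under 0.05). At an unadjusted p under 0.05 there were 7 members at the 1-cell stage, 2 at the 2-cell stage and 5 for the difference, and 2618, 637 and 1648 genes in all. DESeq2 called 420 genes higher and 114 lower at the 1-cell stage, 1 of them a member, and 0 members elsewhere. The 3 Sm-injected libraries of a stage were treated as replicates of each other against 1 mCherry library, which is assumed to vary as the others do. They received different mRNAs, and edgeR did not call even the injected transcripts Snrpb and Snrpd2 at either stage. The absence of calls therefore cannot be read as the absence of an effect.

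At the 1-cell stage 39 of the 49 genes (79.6%) had a log2 fold change (Sm over mCherry) below 0, against 48.5% of all genes. Their median was -0.20. Of the 123 other pathway genes, 97 (78.9%) were below 0 as well. Among genes at 5 cRPKM or more this share was 29 of 37 members, against 54% of all such genes. In cRPKM, the mCherry library was above all 3 Sm-injected libraries for 35 genes, against 35.4% of all genes. With TMM-scaled counts it was 32 genes, against 34.2%. The Snrpb library was the lowest of the 4 for 28 genes in cRPKM, against 30.1% of all genes, and for 20 genes with TMM-scaled counts, against 21.7%. The injected transcripts made up 4.88%, 0.46% and 1.56% of reads in the Snrpb, Snrpd2 and combined 1-cell libraries and 0.001% in the mCherry library. Cumulus and granulosa cell markers, a list of 20 genes, summed to 36.1, 32.8 and 48.0 cRPKM in those Sm-injected libraries and 22.4 cRPKM in the mCherry library. In each, 2 or 3 genes were at 0 reads, and Cyp19a1 alone had 15.52 to 19.65 cRPKM. Of the 18 markers tested, 17 had a log2 fold change above 0, against 8682 of 16867 genes. Their median was 1.66. The part of either in the result was not tested.

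The lowest values were those of Nop9 (log2 -0.71 ± 0.29 SE, edgeR adjusted p = 0.279), Rrp9 (log2 -0.61 ± 0.28 SE, edgeR adjusted p = 0.333) and Nhp2 (log2 -0.54 ± 0.27 SE, edgeR adjusted p = 0.358). Nop9 was at 0.485 times its mCherry level in the Snrpb library (95% exact binomial interval 0.411 to 0.571, counting error only), and 1.29% of all genes were at least 2-fold lower and 3.28% at least 2-fold higher there. The highest were Utp20, a large scaffold of the processome (log2 0.83 ± 0.27 SE, edgeR adjusted p = 0.211), Ubtf (log2 0.32) and Gar1 (log2 0.29). Utp20 had 7.33, 8.97 and 11.7 cRPKM in the Snrpb, Snrpd2 and combined libraries, against 5.32 cRPKM in the mCherry library. All 3 Sm libraries were higher, and in the combined library the ratio was 2.15 (interval 2.05 to 2.26). In that library 3.25% of all genes were at least 2-fold higher and 0.917% at least 2-fold lower. DESeq2 called Utp20 higher (adjusted p = 0.0438). Over its other edgeR and limma alternatives the adjusted p ran between 0.106 and 0.345.

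At the 2-cell stage 33 genes had a log2 fold change above 0, against 52.4% of all genes and 61% of the 123 other pathway genes. The median over the 49 genes was 0.07. Without the Snrpd2 library the count was 27 and the median 0.016. In that library 32 genes had their highest 2-cell cRPKM, against 35.8% of all genes (27 genes and 29% with TMM-scaled counts), and its median ratio to the mCherry library was 1.13 over the 49 genes. The median ratios of the Snrpb and combined libraries were 0.991 and 1.04. The highest folds were those of Rrp12, which acts in subunit export (log2 0.78 ± 0.27 SE), Bop1 (log2 0.69 ± 0.39 SE) and Bms1 (log2 0.48 ± 0.17 SE), and edgeR's adjusted p was 1 for each. Bop1 had 1.54, 3.53 and 1.92 cRPKM in the Snrpb, Snrpd2 and combined libraries, against 1.39 cRPKM in the mCherry library. The Snrpd2 library stood apart, at 2.39 times the mCherry level (interval 1.97 to 2.91), and 2.75% of all genes were at least 2-fold higher and 1.55% at least 2-fold lower in it. The lowest folds were those of Ubtf (log2 -0.26 ± 0.18 SE), Ftsj3 (log2 -0.16, but 0.020 without the Snrpb library) and Wdr75 (log2 -0.16).

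**Figure D4:**
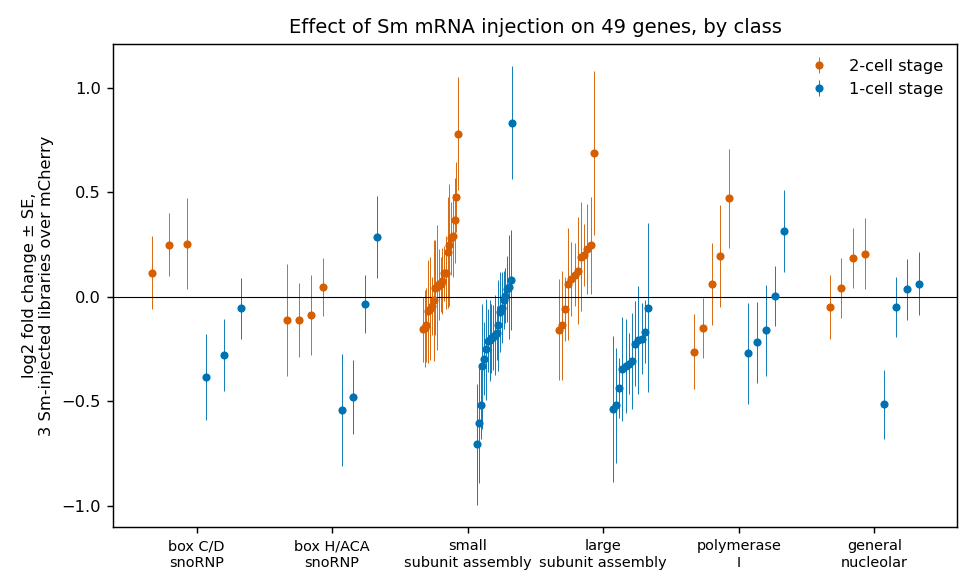
Log2 fold change ± SE of the 3 Sm-injected libraries over the mCherry library for each of the 49 genes, grouped by class and sorted within it, with the 2-cell stage (orange) left of the 1-cell stage (blue). At the 2-cell stage 33 genes lie above 0 and at the 1-cell stage 39 lie below 0, and none passed the edgeR test.

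The injection effect at the 2-cell stage minus that at the 1-cell stage was above 0 for 41 of the 49 genes, against 49.7% of all genes. It was also above 0 for 96 of the 123 other pathway genes (78%). In this test 0 genes passed (smallest edgeR adjusted p = 0.407 among the 49). The median difference over the 49 genes was 0.31 on the log2 scale. Without the 2-cell Snrpd2 library 35 genes were above 0, and the median over the 49 genes was 0.17. The mCherry library was above all Sm-injected libraries at the 1-cell stage and below all of them at the 2-cell stage for 13 genes in cRPKM, against 8.66% of all genes, and for 12 with TMM-scaled counts, against 7.19%. Both counts compare with 1 mCherry library per stage, so all members share its deviation. Among the classes, all 12 large subunit genes and all 3 box C/D genes had differences above 0. Ubtf had a difference of -0.58 ± 0.27 SE. It was the 1 gene with mCherry below all Sm-injected libraries at the 1-cell stage and above all of them at the 2-cell stage in cRPKM, as for 4.79% of all genes. With TMM-scaled counts Gar1 joined it, as for 6.48% of all genes.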

How the data were processed

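The authors deposited, per sample, a table with raw read counts per Ensembl gene and a cRPKM column (a form of RPKM, reads per gene length and library depth), and the genome build mm9 is named in the submitters' processing notes. The sources used here name no aligner, counter or strand setting. Of 22667 IDs, 1114 had no value. In genes over 2000 reads, cRPKM followed the deposited counts to within 0.206%. Symbols and overlaps came from GENCODE vM21, and promoters from RefSeq GRCm38.p6. edgeR 4.0.16 (R 4.3.3, TMM scaling, filterByExpr) fitted stage with the injection as a term (3 residual degrees of freedom) and, separately, 4 groups of stage by Sm or mCherry (4 residual degrees of freedom). DESeq2 1.42.0 and limma 3.58.1 on log2(cRPKM + 0.1) or log2(cRPKM + 1) were alternatives, as were other scalings, no filter and leaving out each library. The fits were tested on simulated data. No library has a replicate of its own condition. The stage p-values therefore measure how the stage change varies between the 4 injections. The injection p-values measure the spread between Sm-injected libraries of different mRNAs within a stage. Depth was 39492734 to 59979046 reads, and intervals cover counting error only. All genes of the smaller classes are named. In each assembly class the 4 largest rises and falls that passed are named, for injections the 3 extremes each way, and for the other pathway genes 2 each way per class. The members and lists were chosen with earlier results of these data known.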

Additional observations from a re-analysis of the deposited data

Results flagged for a closer look

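In 8 of 98 tests of a gene within the 4 libraries of a stage, 1 library lay far from the other 3. The limit used passes about 1 in 20 sets of independent values. The genes share the same libraries and the share over all genes was not measured, so 8 cannot be read as an excess. At the 2-cell stage these were Fbl at 50.96 and Rrp15 at 20.16 cRPKM in the Snrpd2 library, and Gnl2 at 11.09 and Wdr12 at 4.41 cRPKM in the combined library, each above the rest. At the 1-cell stage Ncl at 26.87, Utp6 at 16.85 and Utp15 at 17.82 cRPKM lay below the rest in the Snrpb library, and Nop10 at 18.35 cRPKM lay above the rest in the mCherry library.

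In cRPKM the mCherry library lay on opposite sides of every Sm-injected library at the 2-cell and 1-cell stages for 14 genes. For 13 of them it was above at the 1-cell stage and below at the 2-cell stage, against 8.66% of all genes. For Ubtf it was the reverse, against 4.79% of all genes. With TMM-scaled counts, on which the differences below rest, Fbl left this group and Gar1 joined it. The log2 difference of the injection effect (2-cell minus 1-cell) was 1.23 for Bop1, 0.72 for Ddx21, 0.64 for Ddx18, 0.63 for Polr1a, 0.57 for Nop14, 0.48 for both Noc4l and Utp3, and 0.47 for Polr1b. It was 0.45 for Gnl2, 0.43 for Gnl3, 0.40 for Fbl, 0.31 for Nop58, 0.29 for Mphosph10 and -0.58 for Ubtf. None passed edgeR's test of the difference (smallest adjusted p = 0.407).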

How the results depend on the processing

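The stage counts of 14 higher and 28 lower genes were the same in each alternative except library totals and limma (17 and 27) and the fit with no replicate block, that is without the injection term (14 and 30, and 5934 and 5473 over all genes). Leaving out 1 library gave 5569 to 5874 genes higher and 4680 to 5270 lower overall. Of 42 called members, 41 kept their call throughout. Wdr12 lost it with library totals and both limma fits (-0.38, -0.37 and -0.30). Under those 3 settings Gar1, Polr1e and Noc3l were called higher, and the sign turned for Utp3 (0.15, 0.14 and 0.14), Utp15 (0.21, 0.21 and 0.20) and Rrn3 (0.068, 0.068 and 0.066). Utp3 also turned without both mCherry libraries (0.0055), and the 2-cell injection effect of Ftsj3 turned without the Snrpb library (0.020). The causes were not tested.

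For the injections, DESeq2 called 420 genes higher and 114 lower at the 1-cell stage (1 member, higher) and 8 higher and 23 lower for the difference between stages. With limma and a pseudocount of 0.1, 1 gene was lower at the 1-cell stage, 2 higher at the 2-cell stage and 1 higher for the difference. Leaving out 1 library gave 0 to 3 genes higher at the 1-cell stage. The labels give no replicate numbers. Libraries of the stages pair by the injected mRNA, which is the injection term of the stage fit. For the injection effects no paired analysis was possible because each condition has 1 library. Nop16 at the 1-cell stage, with 23 to 41 reads, has the least depth.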
